A study of Mus musculus with 16 samples.

Results

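Heat shock proteins and their cochaperones were described in the ventricles of mice with and without Trbp in cardiomyocytes, after sham surgery or transverse aortic constriction (TAC), which narrows the aorta and loads the left ventricle with pressure. The group comprised 10 genes, Hspa1a, Hspa1b, Hspa8, Hsph1, Dnajb1, Hsp90aa1, Bag3, Hspb1, Hspd1 and Hspe1, each found by its Ensembl identifier as 1 of the 55573 genes of the count table. The group was chosen by values measured in these hearts, because the levels of Hspa1a and Hspa1b in sham-operated Trbp-cKO hearts had among the largest falls of all genes against sham-operated controls. All 10 were among the 19955 genes with enough counts to be tested. RNA came from 16 hearts, 4 in each of 4 groups, and each library held a single heart. The mice of all groups were males that carried the aMHC-MerCreMer transgene and 2 Trbp-Flox alleles (Trbp-Flox/Flox). MerCreMer is a Cre recombinase that enters the nucleus when tamoxifen is present, and the alpha-MHC promoter restricts it to cardiomyocytes, so that fibroblasts, vessels and immune cells keep Trbp. Tamoxifen was injected at 30 mg/kg on each of 5 days into Trbp-cKO mice that were 4 weeks old, whereas controls were given corn oil, so that the deletion and the drug cannot be told apart in these hearts. Ventricles were collected when the mice were 16 weeks old, with about 8 weeks of pressure overload in the TAC groups.

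Chaperones bind proteins that are unfolded or still being made, keep them from clumping and help them to fold. The Hsp70 proteins do so in cycles of ATP hydrolysis, with J-domain proteins that deliver substrates and start hydrolysis and with nucleotide exchange factors that end the cycle. Hsp90 takes over partly folded kinases and receptors, small heat shock proteins hold unfolded proteins without ATP, and Hsp60 with its lid Hsp10 folds proteins inside mitochondria. Some chaperones are made at all times, while others are transcribed within minutes of heat, ischemia or other stress through the transcription factor Hsf1, which binds inverted repeats of the letters GAA known as heat shock elements. In the heart, small heat shock proteins and Bag3 are known for their work at the sarcomere, the contractile unit of the muscle.

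The stretches before the transcription starts are shown as a description of the genes. Their part in the variation from heart to heart, which is described further on, was not tested. RefSeq promoter windows of GRCm38.p6, 11 in all, were available for 8 of the 10 genes, and Hspa8 and Hsp90aa1 were not matched. In the 250 bases before each start, 3 repeats in a row, with the units GAA and TTC in turn and any 2 bases between units, were searched on both strands, starting with either unit. They were present in 0.466% of the 32851 windows of all genes and in windows of 2 of the 10, Hspe1 and Hspd1, which share the stretch. Hspd1 had 2 windows, and the one before its outermost start held neither these letters nor the shorter ones. The shorter letters, GAA and TTC in either order with any 2 bases between them, read the same on both strands and overlap the longer ones. They were present in 12.8% of all windows and in 7 of the 11 windows here, which belonged to 6 of the 8 genes with a window. Bag3 and Dnajb1 had windows without either. These matches are descriptions of letters and no evidence of binding. Only exact letters were counted, so a window without a match is no evidence that binding is absent. The sequences follow 5′ to 3′ on the strand of the gene, with the letters of the shorter search in capitals. The windows of Hspa1a (chr17:34972157-34972406, minus strand) and Hspa1b (chr17:34959239-34959488, minus strand) are given whole, since they were equal at 247 of 250 bases, as is that of Hspb1 (chr5:135887669-135887918, plus strand), which held 2 separate matches. For Hspe1 (chr1:55088053-55088082, plus strand) and Hsph1 (chr5:149636351-149636380, minus strand), 30 bases around the match are given.
Hspa1a: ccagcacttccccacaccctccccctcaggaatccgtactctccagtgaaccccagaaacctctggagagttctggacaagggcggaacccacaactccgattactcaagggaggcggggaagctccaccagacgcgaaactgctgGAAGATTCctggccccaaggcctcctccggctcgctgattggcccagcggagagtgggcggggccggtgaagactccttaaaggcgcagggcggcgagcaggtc
Hspa1b: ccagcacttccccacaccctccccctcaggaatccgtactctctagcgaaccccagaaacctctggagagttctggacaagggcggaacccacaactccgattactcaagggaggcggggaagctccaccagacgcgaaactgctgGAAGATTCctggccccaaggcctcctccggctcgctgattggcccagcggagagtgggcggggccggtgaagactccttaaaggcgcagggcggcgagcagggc
Hspb1: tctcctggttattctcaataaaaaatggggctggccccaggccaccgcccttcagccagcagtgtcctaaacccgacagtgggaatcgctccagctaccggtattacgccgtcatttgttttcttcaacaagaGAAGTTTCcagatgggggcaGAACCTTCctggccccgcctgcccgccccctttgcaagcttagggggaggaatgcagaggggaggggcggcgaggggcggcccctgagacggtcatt
Hspe1: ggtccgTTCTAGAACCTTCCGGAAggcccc
Hsph1: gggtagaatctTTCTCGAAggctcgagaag

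Counts per library lay between 45166994 and 68274222, and the counts of a member in 1 heart lay between 516 (Hspa1a in Trbp-cKO TAC replicate 4) and 119311 (Hspa8 in Trbp-cKO TAC replicate 3), so that the spread between hearts and not the depth set the precision. Levels are given as counts scaled to 1000000 per library, with library sizes adjusted by TMM (CPM). Tarbp2, which encodes Trbp, was at 30.6 to 33.3 CPM in control sham and 21.1 to 31.1 CPM in control TAC hearts, and at 8.39 to 11.4 CPM and 7.14 to 9.74 CPM in Trbp-cKO sham and TAC hearts. The exact permutation p was 0.0286 in both comparisons, two-sided, the smallest that 4 hearts against 4 allow. Mitochondrial transcripts took 38.15% and 38.78% of the counts in control TAC replicates 1 and 2 and 18.15% to 26.27% in the other hearts. Cardiomyocyte markers such as Myh6 and Ttn were detected in every group, with summed levels of 46330 to 49230 CPM in control sham, 19220 to 44670 CPM in control TAC, 39040 to 47750 CPM in Trbp-cKO sham and 27400 to 44290 CPM in Trbp-cKO TAC hearts. In whole ventricle, fewer cells of a type and less RNA per cell cannot be told apart.

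Per kilobase of exon, the small heat shock protein gene Hspb1 and the constitutive Hsp70 gene Hspa8 were the most abundant of the 10 genes in control sham hearts, at 439 ± 85.6 and 404 ± 43.0 CPM per kilobase (SD, n = 4). Next came Hspd1 at 142 ± 20.9, Hspa1b at 136 ± 88.4, Bag3 at 130 ± 22.3, Hsp90aa1 at 110 ± 29.8 and Hspa1a at 91.8 ± 63.2 CPM per kilobase. Hspe1 followed at 65.4 ± 6.54, Hsph1 at 32.3 ± 13.5 and Dnajb1 at 23.9 ± 16.9 CPM per kilobase. Of the neighbours in this order, only Hspa8 and Hspd1, and Hspe1 and Hsph1, had values that did not overlap between the 4 hearts. Sequence shared with other genes affects these levels to a degree that is not known, because the handling of reads with several positions is not given in the sources used here. Of the stretches of 75 bases in the exons of the gene, 61.7% in Hspa1a and 55.8% in Hspa1b were also found in other genes, mostly in each other. The share was 46.4% in Hspb1, 42.8% in Hsp90aa1, 33% in Hspa8, 31% in Hspd1 and 14.6% in Hspe1, with other annotated genes, and 0 in Hsph1, Dnajb1 and Bag3.

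Summed over the 10 genes, the level was 3094, 4625, 4294 and 5560 CPM in control sham hearts and 2433, 2562, 2536 and 2365 CPM in Trbp-cKO sham hearts. The TAC hearts had 1803, 2515, 2874 and 3271 CPM in control and 2918, 3331, 3655 and 1937 CPM in Trbp-cKO hearts. Every control sham heart lay above every Trbp-cKO sham heart, whereas the TAC groups overlapped.

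**Figure D1:**
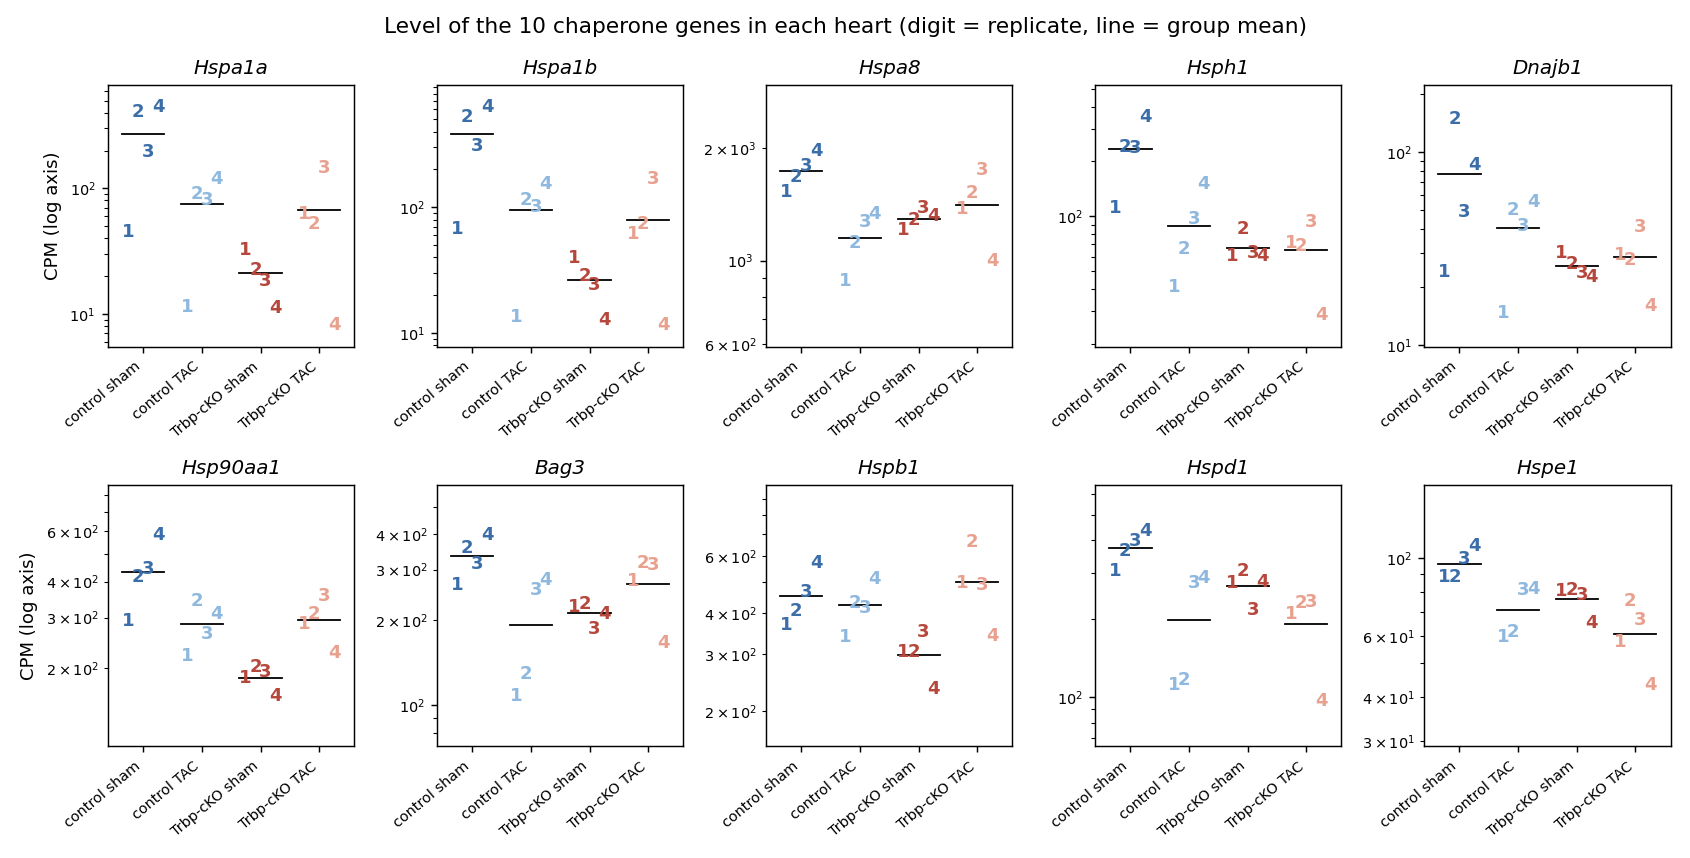
Level of each of the 10 genes in CPM (log axis) in the 16 hearts, with the digit giving the replicate number and the line the group mean. In control sham, control TAC and Trbp-cKO TAC hearts, Hspa1a and Hspa1b spread over about an order of magnitude, and replicate 1 of both control groups and replicate 4 of Trbp-cKO TAC lay low in most panels.

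Hspa1a (ENSMUSG00000091971, GRCm38 chr17:34969190-34972156, minus strand) and Hspa1b (ENSMUSG00000090877, chr17:34956436-34959238, minus strand) encode the stress-inducible Hsp70. The level of Hspa1a was 45.1, 405.7, 193.7 and 444.9 CPM in control sham and 32.5, 22.2, 18.2 and 11.1 CPM in Trbp-cKO sham hearts. It was 11.3, 90.2, 81.1 and 117.7 CPM in control TAC and 62.4, 52.2, 144.2 and 8.20 CPM in Trbp-cKO TAC hearts. Control sham hearts 2, 3 and 4 were above every heart of the other groups, while control sham heart 1 lay within the range of both TAC groups. The level of Hspa1b was 67.8, 525.2, 306.7 and 625.6 CPM in control sham and 39.96, 28.7, 24.2 and 12.9 CPM in Trbp-cKO sham hearts. It was 13.4, 113.6, 100.6 and 152.3 CPM in control TAC and 61.2, 73.8, 168.1 and 11.7 CPM in Trbp-cKO TAC hearts. The order of the groups and the hearts at the extremes were those of Hspa1a. Because reads may be split between these near-identical genes, their sum was also computed. It ran from 112.8 to 1070 CPM in control sham, 24.7 to 270 CPM in control TAC, 24.0 to 72.5 CPM in Trbp-cKO sham and 19.9 to 312.2 CPM in Trbp-cKO TAC hearts, and the ratio of Hspa1a to Hspa1b stayed between 0.632 and 1.02.

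Between the sham groups, the fitted log2 fold change with the deletion was -3.70 for Hspa1a (SE 0.86) and -3.85 for Hspa1b (SE 0.85), or fitted levels 12.98-fold and 14.4-fold lower. The genes were selected on these falls, so they are given as values with no test. The spread between hearts was part of the picture, since the highest control sham heart exceeded the lowest 9.88-fold for Hspa1a, against 2.93-fold among Trbp-cKO sham hearts. After TAC, the same comparison of genotypes, made in other hearts, gave -0.17 for Hspa1a (95% interval -1.82 to 1.48, edgeR adjusted p = 0.924) and -0.27 for Hspa1b (-1.88 to 1.34, adjusted p = 0.873). The TAC hearts of the 2 genotypes overlapped over nearly their whole ranges, which were 10.5-fold wide in control and 17.6-fold wide in Trbp-cKO hearts for Hspa1a. TAC against sham surgery gave -1.86 (SE 0.80) and -2.01 (SE 0.78) in controls and 1.67 (SE 0.80) and 1.58 (SE 0.77) in Trbp-cKO mice, again as values with no test because these comparisons share the sham hearts. Without single hearts, the values in Trbp-cKO mice ran from 0.96 to 2.04 for Hspa1a and from 0.89 to 1.94 for Hspa1b. The lowest were those without Trbp-cKO TAC replicate 3.

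Hspa8 (ENSMUSG00000015656, chr9:40800984-40810087, plus strand) encodes the constitutive Hsp70 of the cytosol, Hsc70. Its level was 1525, 1676, 1792 and 1962 CPM in control sham and 1205, 1280, 1383 and 1312 CPM in Trbp-cKO sham hearts. It was 884.3, 1115, 1265 and 1336 CPM in control TAC and 1373, 1515, 1750 and 998.6 CPM in Trbp-cKO TAC hearts. All control sham hearts exceeded all control TAC and all Trbp-cKO sham hearts. The difference was -0.43 on the log2 scale (SE 0.18) between the sham groups, or 1.34-fold lower fitted levels, a small change beside those of Hspa1a and Hspa1b.

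Hsph1 and Dnajb1 encode partners of Hsp70. Hsph1 (ENSMUSG00000029657, chr5:149614287-149636376, minus strand) encodes Hsp105, a nucleotide exchange factor. Its level was 111.2, 239.8, 236.2 and 350.5 CPM in control sham and 60.6, 85.0, 62.8 and 60.3 CPM in Trbp-cKO sham hearts. In the TAC groups Hsph1 was at 41.0, 66.1, 96.0 and 151.1 CPM in control and 71.0, 68.7, 92.5 and 28.8 CPM in Trbp-cKO hearts. Dnajb1 (ENSMUSG00000005483, chr8:83608193-83612653, plus strand) encodes the J-domain protein Hsp40, which passes substrates to Hsp70. Its level was 23.8, 148.3, 48.9 and 85.4 CPM in control sham and 30.0, 26.4, 23.6 and 22.5 CPM in Trbp-cKO sham hearts. In the TAC groups Dnajb1 was at 14.8, 50.01, 41.4 and 55.0 CPM in control and 29.4, 27.5, 41.2 and 15.9 CPM in Trbp-cKO hearts. The log2 difference between the sham groups was -1.80 (SE 0.41) for Hsph1 and -1.58 (SE 0.47) for Dnajb1. Dnajb1 was the only one of the 10 genes whose sham groups overlapped, through control sham heart 1.

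Hsp90aa1 and Bag3 act beside the Hsp70 cycle. Hsp90aa1 (ENSMUSG00000021270, chr12:110690605-110702728, minus strand) encodes the inducible Hsp90 of the cytosol. Its level was 293.2, 413.8, 441.5 and 578.3 CPM in control sham and 185.0, 202.4, 194.6 and 161.0 CPM in Trbp-cKO sham hearts. After TAC, Hsp90aa1 was at 221.8, 343.7, 263.6 and 307.9 CPM in control and 284.4, 309.1, 357.9 and 227.0 CPM in Trbp-cKO hearts. The Trbp-cKO sham hearts were the lowest 4 of the 16. Bag3 (ENSMUSG00000030847, chr7:128523616-128546981, plus strand) encodes a cochaperone that links Hsp70 to small heat shock proteins and to autophagy. Its level was 265.3, 358.1, 315.0 and 398.2 CPM in control sham and 222.1, 226.3, 186.0 and 210.3 CPM in Trbp-cKO sham hearts. After TAC, Bag3 was at 107.5, 128.8, 255.0 and 275.1 CPM in control and 274.4, 317.1, 312.2 and 165.6 CPM in Trbp-cKO hearts. The log2 difference between the sham groups was -1.22 (SE 0.20) for Hsp90aa1 and -0.66 (SE 0.28) for Bag3.

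Hspb1 (ENSMUSG00000004951, chr5:135887919-135889563, plus strand) encodes the small heat shock protein Hsp25. Its level was 369.3, 405.9, 464.0 and 571.3 CPM in control sham and 303.5, 305.1, 350.0 and 233.8 CPM in Trbp-cKO sham hearts. After TAC, Hspb1 was at 338.5, 429.6, 415.8 and 508.5 CPM in control and 496.5, 662.8, 490.4 and 340.5 CPM in Trbp-cKO hearts. The Trbp-cKO sham hearts lay below the control sham hearts by 0.60 on the log2 scale (SE 0.20), and the fitted level was lower by 0.10 in control TAC than in control sham hearts, which overlapped.

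Hspd1 and Hspe1 encode the mitochondrial Hsp60 and its lid Hsp10 and are transcribed in opposite directions, and the stretch printed above lies before the start of Hspe1 and before 1 of the 2 starts of Hspd1. Hspd1 (ENSMUSG00000025980, chr1:55077835-55088243, minus strand) was at 304.9, 363.8, 396.1 and 435.4 CPM in control sham and 273.5, 304.8, 215.6 and 276.0 CPM in Trbp-cKO sham hearts. After TAC, Hspd1 was at 111.1, 116.6, 274.3 and 285.7 CPM in control and 208.2, 228.8, 232.0 and 97.1 CPM in Trbp-cKO hearts. Hspe1 (ENSMUSG00000073676, chr1:55088132-55091307, plus strand) was at 88.6, 88.6, 99.7 and 108.5 CPM in control sham and 80.8, 81.3, 78.7 and 65.5 CPM in Trbp-cKO sham hearts. After TAC, Hspe1 was at 59.6, 61.7, 81.0 and 81.6 CPM in control and 57.7, 75.5, 66.7 and 43.3 CPM in Trbp-cKO hearts. For both genes every control sham heart exceeded every heart of both TAC groups, and the genes overlap at their starts, so that reads there may be counted for either. The log2 difference between the sham groups was -0.49 (SE 0.32) for Hspd1 and -0.33 (SE 0.16) for Hspe1, the smallest of the 10.

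**Figure D2:**
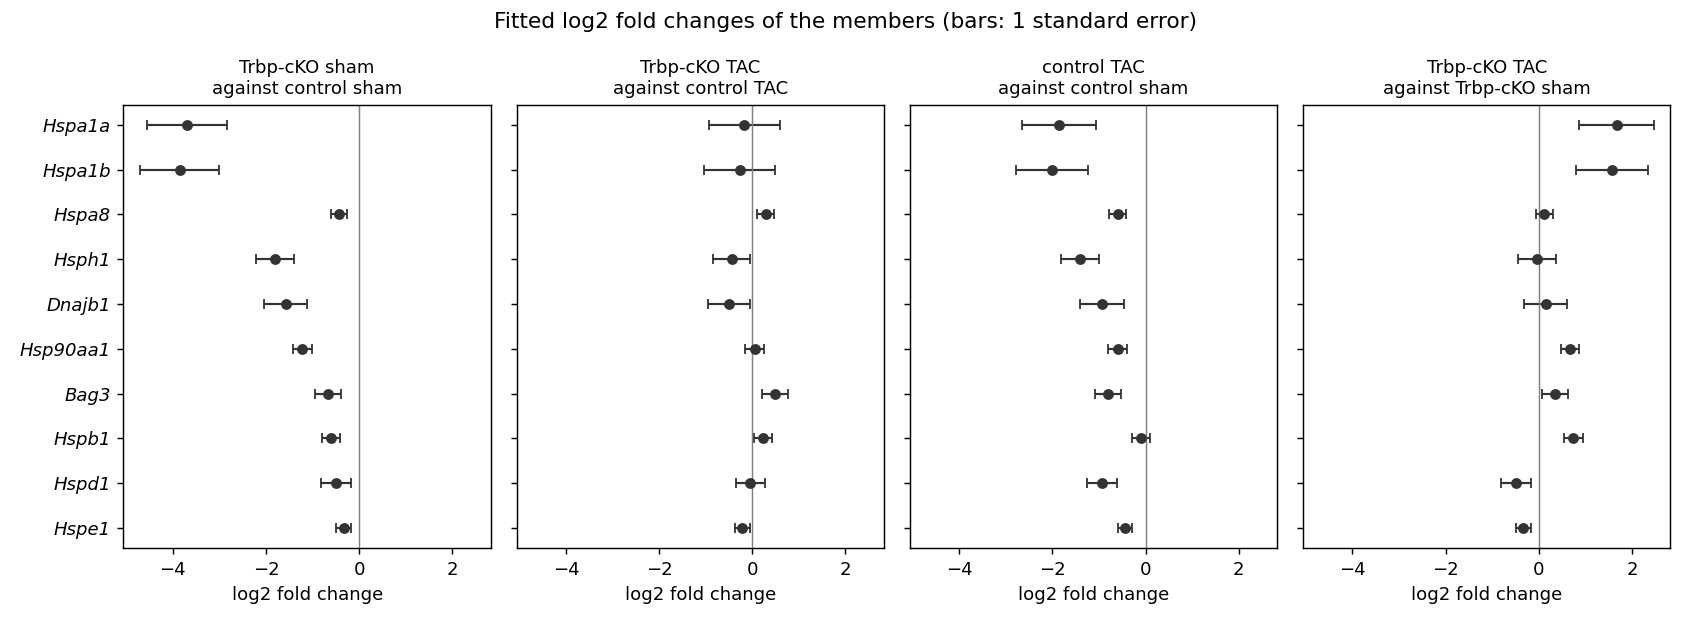
Fitted log2 fold changes of the 10 genes in the 4 comparisons of groups, with bars of 1 standard error. All 10 estimates lay below 0 for the deletion in sham hearts and for TAC in control hearts, and 4 lay above and 6 below 0 for the deletion in TAC hearts, where Hspd1 was above 0 with scaling by library size alone.

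The first question of the design was how the deletion changed expression without pressure overload. Between the sham groups, all 10 log2 fold changes were below 0, with a median of -0.94 and a range of -3.85 to -0.33, while the median of all genes tested was 0.01. The groups did not overlap for 9 of the 10 genes, and 6.96% of all genes had lower values in every Trbp-cKO sham heart. This comparison is the one from which the group was assembled, so the counts describe it and carry no test.

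The second question was whether hearts under pressure overload differed with the deletion. This comparison of TAC hearts shares no heart with that of sham hearts. A gene was called where edgeR's quasi-likelihood test gave a Benjamini-Hochberg adjusted p of 0.05 or less together with a log2 fold change of 0.8 or more in either direction. None of the 10 genes reached both thresholds, which 2.46% of all genes did. The count at an unadjusted p under 0.05 was also 0, against 21.4% of all genes, and DESeq2 and edgeR's exact test passed 0 as well. The log2 fold changes ran from -0.50 (Dnajb1, 95% interval -1.49 to 0.49) to 0.48 (Bag3, -0.11 to 1.07), with a median of -0.11, and no gene had groups without overlap (10% of all genes did). For Hspa8 the difference was 0.29 (-0.08 to 0.67, adjusted p = 0.355), for Hspb1 0.23 (-0.20 to 0.67, adjusted p = 0.540) and for Hsp90aa1 0.05 (-0.37 to 0.47, adjusted p = 0.911). Hsph1 had -0.44 (-1.29 to 0.41, adjusted p = 0.559), Hspe1 -0.22 (-0.56 to 0.12, adjusted p = 0.445) and Hspd1 -0.04 (-0.71 to 0.63, adjusted p = 0.958; 0.08 with scaling by library size alone). Without control TAC replicates 1 and 2, the hearts with the high mitochondrial share, Hsph1 moved to -0.93, Hspd1 to -0.56 and Bag3 to 0.00. In the same fit Hspa1a moved to -0.58, Hspa1b to -0.69 and Hspa8 to 0.10, and again none of the 10 genes passed.

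The deletion effect after TAC minus that after sham surgery was above 0 for all 10 genes, with a median of 1.11 against -0.01 over all genes. It was 3.53 for Hspa1a, 3.58 for Hspa1b, 1.36 for Hsph1, 1.27 for Hsp90aa1, 1.14 for Bag3, 1.08 for Dnajb1, 0.84 for Hspb1, 0.72 for Hspa8, 0.45 for Hspd1 and 0.11 for Hspe1 on the log2 scale. The sham hearts enter this difference too, so it is a description.

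The third question was what pressure overload changed in control hearts. With TAC in controls, all 10 log2 fold changes were below 0, with a median of -0.86 against 0.02 over all genes. The control sham hearts are also those whose high levels led to the choice of the group, so that the values are a description with no test. They were -1.40 for Hsph1 (SE 0.41), -0.93 for Hspd1 (SE 0.32), -0.93 for Dnajb1 (SE 0.47) and -0.80 for Bag3 (SE 0.28). Smaller differences were found for Hspa8 (-0.60, SE 0.18), Hsp90aa1 (-0.60, SE 0.20), Hspe1 (-0.44, SE 0.16) and Hspb1 (-0.10, SE 0.20). The groups did not overlap for Hspa8, Hspd1 and Hspe1, all 3 lower after TAC, as were 8.78% of all genes. Without control TAC replicates 1 and 2, the hearts with a high mitochondrial share, Hsp90aa1 stayed at -0.60, while the others were -0.93 for Hsph1, -0.67 for Dnajb1, -0.42 for Hspa8, -0.42 for Hspd1, -0.34 for Bag3, -0.25 for Hspe1 and 0.03 for Hspb1.

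The fourth question was what pressure overload changed in Trbp-cKO hearts. With TAC in Trbp-cKO mice, 7 log2 fold changes were above and 3 below 0, with a median of 0.25 against -0.00 over all genes. The low Trbp-cKO sham hearts entered the choice of the group, so that these values are a description with no test as well. The level of Hspb1 was higher by 0.74 (SE 0.20), a fitted 1.67-fold, and that of Hsp90aa1 by 0.67 (SE 0.20), a fitted 1.59-fold. Hsp90aa1 was higher in every Trbp-cKO TAC heart than in every Trbp-cKO sham heart, as were 9.05% of all genes, and Hspb1 was higher in 3 of the 4 TAC hearts than in all sham hearts. The other 6 genes had between -0.48 (Hspd1) and 0.34 (Bag3), with 0.12 for Hspa8, 0.15 for Dnajb1, -0.04 for Hsph1 and -0.33 for Hspe1.

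Within groups, some hearts were low or high in most of the 10 genes. Control TAC replicate 1 and Trbp-cKO TAC replicate 4 had the lowest value of their group for 10 of 10 genes, control sham replicate 1 for 9 and Trbp-cKO sham replicate 4 for 7. Control sham replicate 4 and control TAC replicate 4 had the highest value of their group for 9 genes each, and Trbp-cKO TAC replicate 3 for 7. Averaged over the 10 genes, the log2 deviation from the group mean was -0.83 in control sham replicate 1, -0.95 in control TAC replicate 1 and -0.98 in Trbp-cKO TAC replicate 4, and it lay between -0.27 and 0.17 in the Trbp-cKO sham hearts.

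**Figure D3:**
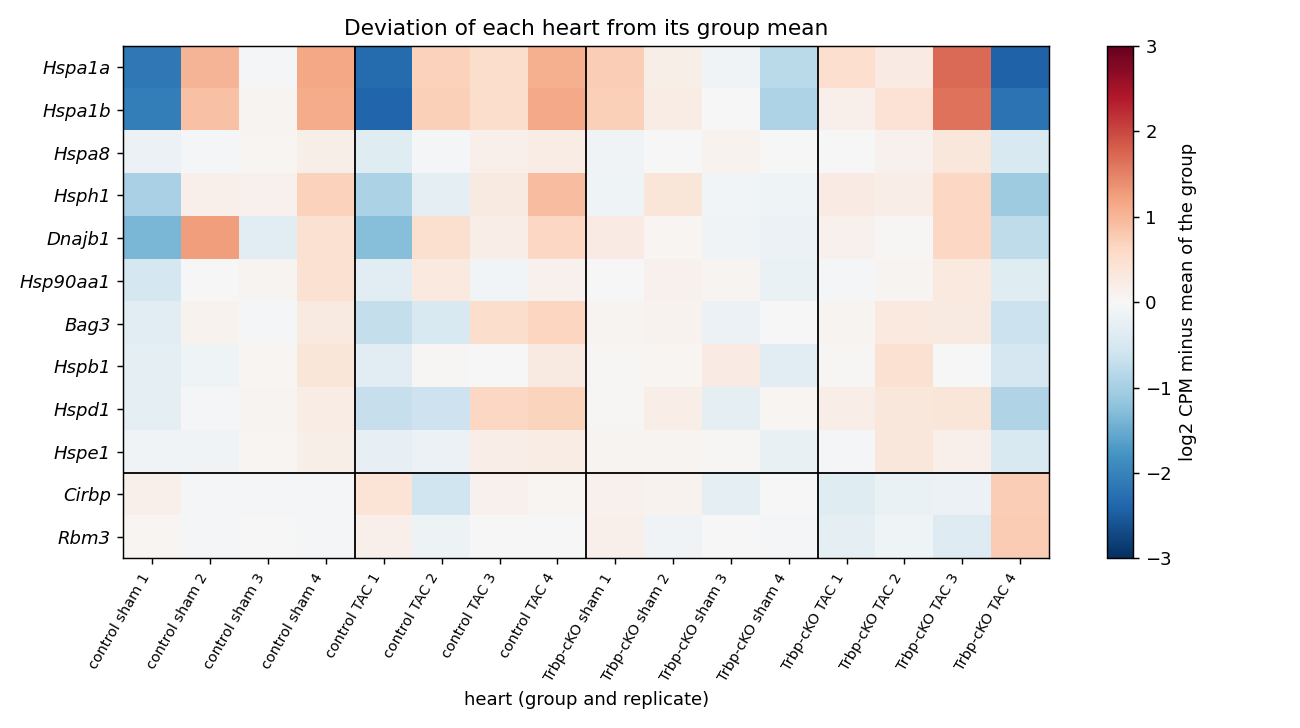
Log2 CPM of each gene in each heart minus the mean of its group, for the 10 genes and for Cirbp and Rbm3 below the line, with blue for low and red for high values. Control sham replicate 1, control TAC replicate 1 and Trbp-cKO TAC replicate 4 were low in nearly all of the 10 genes, and Cirbp and Rbm3 were high in Trbp-cKO TAC replicate 4.

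With group means removed, the Pearson correlations of log2 CPM over the 16 hearts were positive for all 45 pairs of the 10 genes, from 0.448 (Dnajb1 with Hspe1) to 0.995 (Hspa1a with Hspa1b), with a median of 0.768. These are descriptions, since the genes share libraries and, for Hspa1a and Hspa1b, sequence. Bag3 and Hspd1 had the highest value of the pairs without such a resemblance, 0.974, and Hspd1 and Hspe1 had 0.846. Without Trbp-cKO TAC replicate 4, the pairs ran from 0.284 to 0.994, with a median of 0.685.

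Relative to the mean of Hspa1a and Hspa1b, the correlations over the 16 hearts were 0.911 for Dnajb1, 0.897 for Hsph1, 0.868 for Hsp90aa1, 0.839 for Hspa8, 0.767 for Bag3, 0.722 for Hspb1, 0.708 for Hspe1 and 0.701 for Hspd1. Over the 12960 genes with a mean log2 CPM of at least 1, the median was 0.06 and the 95th percentile 0.619. The 6 genes most like the pair outside the 10 were Hsp90ab1 (0.907), Ccdc117 (0.903), Hspa1l (0.902), Dcun1d3 (0.900), Sphk2 (0.897) and Dnaja1 (0.893). Hsp90ab1 encodes the constitutive Hsp90 and Dnaja1 a J-domain protein, while Hspa1l lies beside Hspa1a and shares part of its sequence.

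**Figure D4:**
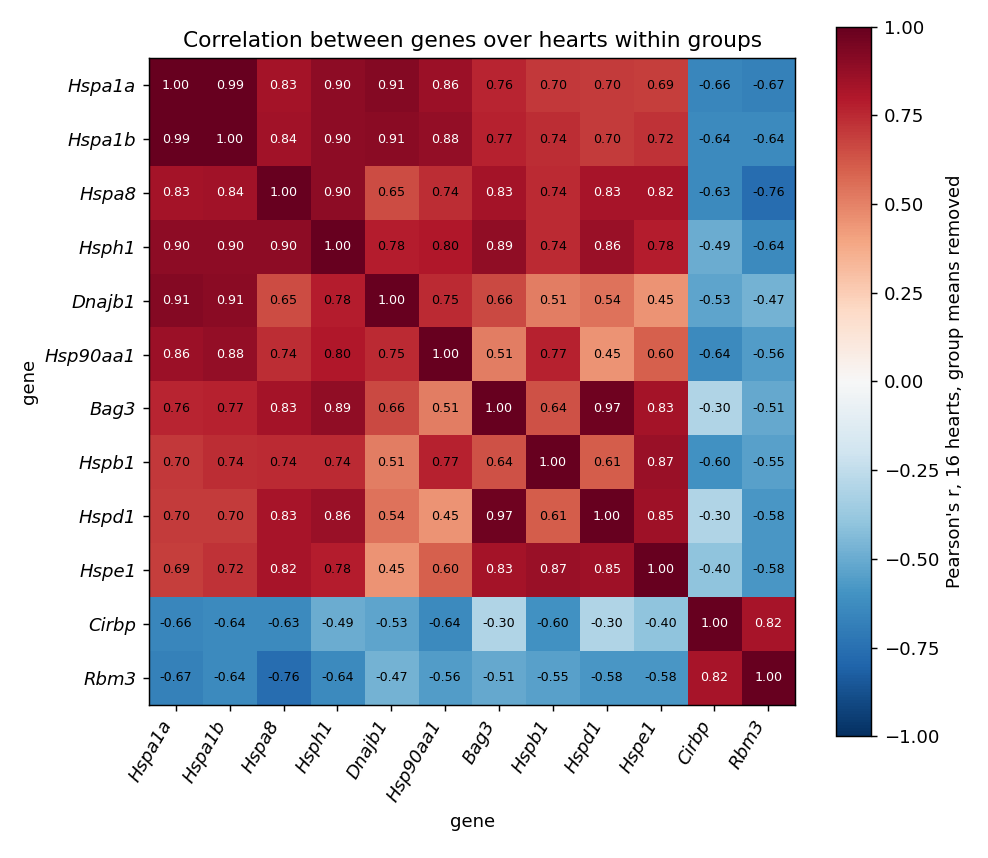
Pearson correlations of log2 CPM over the 16 hearts, with group means removed, between the 10 genes and with Cirbp and Rbm3. All pairs of the 10 genes were positive (red), and all pairs of these genes with Cirbp or Rbm3 were negative (blue), while Cirbp and Rbm3 correlated at 0.823.

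Other measures moved with the 10 genes. Cirbp and Rbm3, RNA-binding proteins known to rise in mild cold, correlated negatively with all 10, from -0.656 to -0.300 for Cirbp and from -0.759 to -0.470 for Rbm3. In Trbp-cKO TAC replicate 4, where the 10 genes were low, Rbm3 was at 119.6 CPM against 53.9 to 64.5 CPM in the other hearts of the group. Without that heart the median correlation was -0.317 for Cirbp and -0.458 for Rbm3, and 1 or more genes had positive values, up to 0.225 and 0.0931. Summed, Cirbp and Rbm3 were at 76.5 to 84.3 CPM in control sham, 67.6 to 96.6 CPM in control TAC, 89.9 to 106.7 CPM in Trbp-cKO sham and 81.6 to 172.2 CPM in Trbp-cKO TAC hearts. The mitochondrial share of the counts correlated most with Bag3 (-0.890) and Hspd1 (-0.887) and least with Hsp90aa1 (-0.170), and without control TAC replicates 1 and 2 these were -0.723, -0.783 and -0.402. The part of these measures in the differences between groups was not tested.

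Immediate early genes, which like the inducible chaperones are transcribed within minutes of a stimulus, were compared in the same hearts. Of the 20 listed, 19 had log2 fold changes below 0, between the sham groups, with a median of -0.93, and 5 (Fosl2, Egr3, Egr2, Myc and Nr4a3) passed both thresholds, against 0.456% of all genes with lower levels. Their summed level was 720.1 to 2059 CPM in control sham, 571.2 to 1357 CPM in control TAC, 570.5 to 718.5 CPM in Trbp-cKO sham and 743.4 to 1272 CPM in Trbp-cKO TAC hearts. With TAC in Trbp-cKO mice, 4 (Egr2, Maff, Atf3 and Myc) passed with higher levels, as did 3.23% of all genes. Of 18 circadian clock genes and clock outputs, 8 passed in the sham comparison, 6 higher and 2 lower, beside 0.967% of all genes, and their summed level was 625.9 to 728.4 CPM in control sham and 1010 to 1083 CPM in Trbp-cKO sham hearts, with 722.2 to 853.3 CPM in control TAC and 624.1 to 903 CPM in Trbp-cKO TAC hearts. Of the 8 fibroblast markers, 6 were higher in every Trbp-cKO sham heart than in every control sham heart, as were 7.74% of all genes. The markers summed to 904.1 to 1149 CPM in Trbp-cKO sham and 689.3 to 781.4 CPM in control sham hearts. None of the 8 passed both thresholds between the sham groups. After TAC, their summed level was 978 to 1824 CPM in control and 1764 to 3312 CPM in Trbp-cKO hearts. Of the 8, 3 (Col1a1, Postn and Col1a2) then passed with higher levels in Trbp-cKO hearts, beside 2.46% of all genes in either direction. The log2 fold changes of 4 were below 0 and the median was 0.02, so that the sum did not stand for the whole list. Smooth muscle markers summed to 393.1 to 535.9 CPM in control sham and 633.6 to 835.9 CPM in Trbp-cKO sham hearts, and to 270.3 to 318 CPM in control TAC and 519.2 to 957.8 CPM in Trbp-cKO TAC hearts. Of the 5 markers, 1 (Acta2) passed between the sham groups and 2 (Acta2 and Cnn1) between genotypes after TAC, all higher, beside 0.967% and 2.46% of all genes. In these comparisons 1 and 2 markers were below 0. With TAC in controls the sum was lower, although only 2 of the 5 were below 0, with a median of 0.155. Atrial genes, which include Nppa, summed to 541.6 to 1018 CPM in control sham, 1009 to 1516 CPM in Trbp-cKO sham, 1616 to 3860 CPM in control TAC and 10260 to 15680 CPM in Trbp-cKO TAC hearts. No marker of these lists was at 0 in all hearts, and the part of these genes in the chaperone differences was not tested.

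Beyond the 10 genes, 98 other genes of the protein folding network were examined in 9 lists, of which 97 were tested. Between the sham groups, 75 of the 97 had log2 fold changes below 0, with a median of -0.17, and 2 passed both thresholds, both lower, beside 0.967% of all genes in either direction. These were Dnaja1, at -1.25 (SE 0.28, edgeR adjusted p = 0.0367), and Chordc1, a cochaperone of Hsp90, at -0.95 (SE 0.20, edgeR adjusted p = 0.0317). Dnaja1 was at 161.5 to 340.6 CPM in control sham and 89.2 to 132.6 CPM in Trbp-cKO sham hearts, and Chordc1 at 50.01 to 93.4 CPM and 32.8 to 40.7 CPM. For both genes the groups did not overlap, and neither was called without any 1 of control sham replicates 2, 3 and 4 or any 1 of the Trbp-cKO sham hearts. The sham hearts entered the choice of the 10 genes, and the lists were chosen with earlier results of these data known. Calls of chaperone genes in comparisons that use sham hearts are therefore descriptions, and their adjusted p values are no independent evidence.

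With TAC in controls, 81 of the 97 genes were below 0, with a median of -0.26, and 6 passed, all lower, beside 3.75% of all genes in either direction and 1.25% with lower levels. Besides Dnaja1 (-1.04, SE 0.28, edgeR adjusted p = 0.0397) and Chordc1 (-0.91, SE 0.20, edgeR adjusted p = 0.0199), these were Stip1 at -0.86 (SE 0.24, adjusted p = 0.0489), Hspa5 at -0.83 (SE 0.19, adjusted p = 0.0227), Clpx at -1.12 (SE 0.30, adjusted p = 0.0370) and Hsbp1l1 at -2.05 (SE 0.32, adjusted p = 0.00323). Stip1 encodes the adaptor Hop between Hsp70 and Hsp90, Hspa5 the Hsp70 of the endoplasmic reticulum, and Clpx the unfolding subunit of a mitochondrial protease. Hsbp1l1, a relative of a small protein that binds Hsf1, was scarce, at 0.723 to 1.23 CPM in control sham and 0.166 to 0.309 CPM in control TAC hearts. Without control TAC replicates 1 and 2, only Hsbp1l1 passed, whereas 4 genes then passed between the sham groups, and leaving out single hearts gave from 1 (without control sham replicate 3 or 4 or control TAC replicate 1 or 2) to 12 calls (without control TAC replicate 4). All 12 mitochondrial and all 15 endoplasmic reticulum chaperones had log2 fold changes below 0, and 1 of each list passed.

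Between genotypes after TAC, 1 of the 97 passed, Hsbp1l1 at 1.54 (SE 0.32, edgeR adjusted p = 0.0129), beside 2.46% of all genes, and the median was 0.12. Its level was 0.299, 0.779, 0.733 and 0.89 CPM in Trbp-cKO TAC hearts, so that replicate 1 overlapped the control TAC hearts, and the call was lost when only these 2 groups were fitted. With TAC in Trbp-cKO mice, where 5.57% of all genes passed, 1 of the 97 did, Fkbp5, an immunophilin that binds Hsp90 in steroid receptor complexes, at 1.87 (SE 0.40, edgeR adjusted p = 0.00728). Fkbp5 was at 18.5, 14.5, 22.3 and 14.5 CPM in Trbp-cKO sham and 60.2, 52.0, 20.8 and 121.7 CPM in Trbp-cKO TAC hearts. Trbp-cKO TAC replicate 3 lay within the sham range, and Trbp-cKO TAC replicate 4, the heart of its group in which each of the 10 chaperone genes was lowest, had the highest Fkbp5 level of the 16 hearts.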

How the data were processed

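Oligo(dT)-selected ventricular RNA of 16 mice was sequenced as paired reads of 150 bases. The authors used Cutadapt 2.3 for trimming, HISAT2 2.1.0 for alignment to GRCm38 and StringTie 1.3.4 for transcripts, and deposited a table of unscaled whole-number counts per gene, which were derived from transcript coverage. The annotation release, the read length set at counting and the handling of reads with several positions are not given in the sources used here, so a count need not be 1 fragment. Gene names and positions came from GENCODE M21 (55480 of 55573 rows).

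Counts were analysed with edgeR 4.0.16 in R 4.3.3 (filterByExpr, TMM, robust quasi-likelihood fit to the 4 groups over all 16 hearts, Benjamini-Hochberg adjustment over 19955 genes), after the procedure had been tested on simulated data. A call needed an adjusted p of 0.05 or less and a log2 fold change of 0.8 or more in size, the thresholds in the study's methods. CPM used TMM-adjusted library sizes, log2 CPM a prior count of 2, and intervals are 95%. Correlations are Pearson's r of log2 CPM with group means removed. DESeq2 1.42.0, edgeR's exact test, other filters and scalings, and fits without single hearts were alternatives. Intervals cover the spread between these mice, 1 library each.

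The genes named were the 10 members, Tarbp2, up to 4 called genes of each further chaperone list by largest fold change, Cirbp, Rbm3 and the 6 genes most like Hspa1a and Hspa1b. Called immediate early genes were named after their values were seen. TAC was compared with sham surgery for the members as a description, although a test had been planned for 8 of them, because the sham hearts entered their choice. The members and lists were chosen with earlier results of these data known. The shorter promoter search and the fits without control TAC replicates 1 and 2 were added after seeing the data.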

Additional observations from a re-analysis of the deposited data

Results flagged for a closer look

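Of 104 sets of 4 hearts checked, which were each named gene and the mitochondrial share in each group, 8 held a heart far from the other 3, where chance gives about 1 in 20. Among the 10 chaperone genes these were Hsph1 in Trbp-cKO sham replicate 2, which was high at 85.04 CPM, and Hspe1 in Trbp-cKO sham replicate 4, which was low at 65.48 CPM. Trbp-cKO TAC replicate 4 stood apart for Cirbp (52.56 CPM) and Rbm3 (119.6 CPM), both high, and for the mitochondrial chaperone gene Clpx, which was low at 44.81 CPM. The other hearts were control TAC replicate 4 for Fkbp5 (35.77 CPM, high), control sham replicate 1 for Cirbp (36.27 CPM, high) and control TAC replicate 1 for Sphk2 (20.02 CPM, low).

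Dcun1d3, 1 of the 6 genes most like Hspa1a and Hspa1b, differed in its response to the deletion between sham and TAC hearts. Its deletion effect was -0.31 on the log2 scale after sham surgery and 0.40 after TAC, a difference of 0.71 (edgeR adjusted p = 0.0184), which is below the fold threshold of 0.8 used for calls. Of the 19955 genes tested, 209 were past the adjusted p threshold for this difference.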

How the results depend on the processing

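None of the 10 genes was called between genotypes after TAC under any setting. For TAC against sham surgery, where sham hearts entered the choice of the genes, the numbers past the thresholds are no tests and only show how the fits respond to settings. In controls, 1 of 8 (Hsph1) was past them with a filter of 1 CPM in 4 hearts, with halved counts and with edgeR's exact test, 3 (Bag3, Hspd1 and Hsph1) with DESeq2, and 0 to 3 without single hearts. In Trbp-cKO mice, 2 (Hspb1 and Hsp90aa1) were past the adjusted p with no fold threshold and 0 to 1 without single hearts. The median over the 10 genes was -0.81 to -1.07 between the sham groups without single hearts, the median difference of deletion effects was 0.88 to 1.31 (0.76 without control TAC replicates 1 and 2), and the median correlation was 0.68 to 0.84. Values that changed sign were those of Hspb1 with TAC in controls (0.03 without control TAC replicates 1 and 2, and -0.20 to 0.03 without single hearts) and of Hspd1 between genotypes after TAC (0.08 with library size only, 0.02 with the replicate block, and -0.25 to 0.20 without single hearts). Without single hearts, Hspa1a (-0.87 to 0.20), Hspa1b (-0.96 to 0.09) and Hsp90aa1 (-0.06 to 0.16) between genotypes after TAC, and Hsph1 (-0.26 to 0.20) and Dnajb1 (-0.08 to 0.35) with TAC in Trbp-cKO mice, also changed sign. Of the 97 other chaperone genes, the 2 called between the sham groups became 1 with no filter, 0 with the replicate block, 4 each with the 2 groups alone, the exact test, no fold threshold or without control TAC replicates 1 and 2, and 0 to 3 without single hearts. The 1 called between genotypes after TAC became 0 with the 2 groups alone, 2 with DESeq2 or without control TAC replicates 1 and 2, 4 with no fold threshold, and 1 to 2 without single hearts. The 6 called with TAC in controls became 3 with no filter, 2 with the replicate block, 1 with the 2 groups alone or without control TAC replicates 1 and 2, and 1 to 12 without single hearts. The 1 called with TAC in Trbp-cKO mice became 2 with the filter of 1 CPM, halved counts or the 2 groups alone, 3 with DESeq2 or without control TAC replicates 1 and 2, 4 with the exact test or no fold threshold, and 1 to 5 without single hearts. The causes were not tested. Over all genes, the 102 higher and 91 lower calls between the sham groups became 334 and 267 with the exact test, 204 and 167 with DESeq2, 246 and 183 with the 2 groups alone and 65 and 42 with the replicate block. After TAC, the 309 and 182 between genotypes became 67 and 17 with the 2 groups alone, 196 and 78 with the replicate block and 446 and 299 with DESeq2, and with TAC in controls 498 and 250 became 194 and 110 with the 2 groups alone, 247 and 136 with the replicate block and 87 and 34 without control TAC replicates 1 and 2. Leaving out single hearts gave 74 to 268, 287 to 743 and 277 to 1583 calls in these 3 comparisons. With scaling by library size only, the median over all genes went from 0.01 to 0.11 between the sham groups and from -0.01 to 0.13 between genotypes after TAC, with 205 and 76, and 579 and 126 calls. The labels do not say whether the replicate numbers pair the hearts, and no pairing was seen. Deviations of same-numbered hearts correlated at -0.427 to 0.21, over 0.1 in 3 of 24 pairs, which cannot exclude a pairing. The difference of deletion effects was not computed with fits or the exact test on 2 groups, which hold no 4-group contrast.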
